A study of Mus musculus with 6 samples.

Results

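The first day of a series on the mouse rostral forebrain is described here, the step from embryonic day 9.5 (E9.5) to E10.5 in wild-type embryos. It rests on the 2 wild-type arrays of these ages, out of 6 arrays in all, taken by the age and genotype in their labels. The study compared wild-type embryos with embryos that lack both copies of Fezf1 and Fezf2 (Fezf1-/- Fezf2-/-), 2 related zinc-finger proteins that act as transcriptional repressors in early forebrain, on embryonic days 9.5, 10.5 and 12.5. Tissue was dissected by hand up to the caudal end of the lateral ventricles, and total RNA was biotin-labelled and hybridised to an Affymetrix mouse array, 1 array per genotype and age. The wild-type embryos carry no allele or treatment in the labels, and strain, sex and the number of embryos behind an array are not given there.

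The rostral forebrain at these ages is a pseudostratified sheet of dividing neuroepithelial cells that forms the telencephalon, the eye field and the hypothalamus. Neuroepithelial cells first divide to make more of themselves, and then turn into radial glia, which begin to produce neurons. Proneural transcription factors of the basic helix-loop-helix (bHLH) family start this production, Notch signalling and Hes repressors hold it back, and the RNA-binding protein Lin28a is a marker of the earlier, expanding state.

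Signals are quantile-normalized intensities, and a difference is E10.5 minus E9.5 of log2(signal + 6.50), the added constant being the lower quartile over every deposited value. On this scale 1 is 2-fold, and the change of a dim gene is understated. With 1 array at each age, a wild-type difference has no replicate check and no p-value. The pair of knockout arrays of the same ages shares no array with the wild-type pair, and its values are given beside it. A step averaged over both genotypes, called shared below, was tested with limma on all 6 arrays. A gene is said to have risen or fallen only where it passed that test (adjusted p below 0.05). It can pass where the knockout pair differed little, as for Lhx8 below, and agreement of the genotypes was not tested. In tissue RNA, fewer cells of a type and less RNA per cell cannot be told apart.

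The dissected tissue carried forebrain RNA at both ages. Of 8 forebrain markers, 7 were measured through a probe set of a single gene, and all 7 had a signal over 100 at one age or both, from Six3, Otx2, Lhx2 and Emx2 to the neural genes Sox2, Sox1 and Nes. Their median signal was 424 at E9.5 and 395 at E10.5. None of the 3 measured midbrain and hindbrain markers exceeded 13.5, and none of the 12 Hox genes of that marker set exceeded 76.0. Xist was read at 725 and 573 and the Y-linked gene Kdm5d at 138 and 102 on the wild-type arrays, so each held RNA of both sexes.

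Of 18194 genes with a probe set of their own, 7740 had a signal over 100 in at least 1 of the wild-type arrays. Among them 301 genes (3.89%) were at least 2-fold higher at E10.5 and 152 (1.96%) at least 2-fold lower, together 5.85%. The typical gene moved little: the median difference was -0.05, with quartiles of -0.34 and 0.29, and 45.6% of the genes were higher by any amount. A high value at 1 age is enough to enter this count, and 142 of the 301 higher genes were over 100 already at E9.5, while 83 of the 152 lower genes were still over 100 at E10.5. Taken as deposited, without a common scale, the median difference was -0.55, and 76 genes were higher and 1150 lower, a share of 6.20% higher against 66.4% after normalization. Scaling to a common trimmed mean gave 354 and 157. The choice bears on small differences: on the deposited scale the medians of the neural progenitor, G2 and M phase and oxidative phosphorylation lists described below turned negative (-0.24, -0.33 and -0.45), while they stayed above the median of all genes by 0.30, 0.21 and 0.10. The medians of the proneural and early neuron lists stayed positive on that scale, at 1.68 and 0.85.

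**Figure D1:**
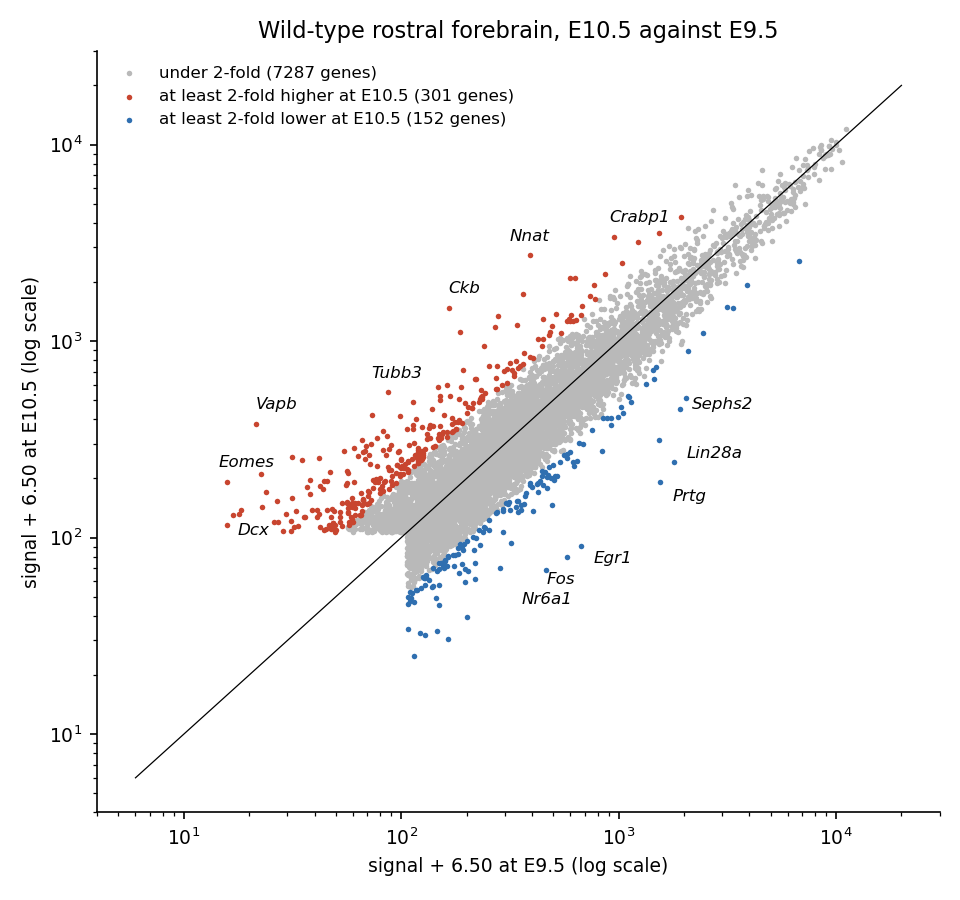
Signal plus 6.50 of each gene in the wild-type array of E9.5 (x axis, log scale) and of E10.5 (y axis, log scale), for the 7740 genes with a signal over 100 in either; the line marks equal signal. Red points are the 301 genes at least 2-fold higher at E10.5, with Eomes, Ckb and Nnat far above the line, and blue points the 152 genes at least 2-fold lower, with Prtg and Lin28a far below it.

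Some control probe sets also differed between the ages, in both genotypes. The ribosomal 18S probe set of the 3′ end was read at 66.5 and 567 in wild type, against 68.2 and 601 in the knockout. On the arrays of E12.5 it was at 234 in wild type and 207 in the knockout. The ratio of the 3′ to the 5′ probe set of beta-actin, a measure of RNA integrity and labelling, was 3.12 and 1.84 in wild type, against 3.21 and 1.59 in the knockout, while that of Gapdh was 0.896 and 0.843 in wild type. Of the probe sets of the added bacterial poly-A RNAs, the 12 named DapX, LysX, PheX and ThrX were compared. They were 1.99-fold to 6.17-fold higher at E10.5 in wild type and 3.03-fold to 12.6-fold higher in the knockout. Whether these shifts have a part in the differences below was not tested.

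Several of the largest increases were of transcription factors of neurogenesis and proteins of young neurons. Eomes, the T-box factor of cortical intermediate progenitors, was read at 9.26 at E9.5 and 186 at E10.5, a difference of 3.61, and its second probe set differed by 4.40. In the knockout pair Eomes went from 3.93 to 37.8, and the step shared by both genotypes was 2.85 ± 0.35 (limma's moderated SE, adjusted p = 9.07e-04). Eomes thus rose, and it stood at 418 in wild type at E12.5. The zinc-finger factors Bcl11a and Bcl11b, which act in cortical and striatal neurons, were likewise low on the first day. Bcl11a went from 24.8 to 251, and Bcl11b from 17.4 to 163, with knockout differences of 1.45 and 1.85. Dcx, the microtubule-associated doublecortin of migrating neurons, went from 11.9 to 131 (knockout 18.9 and 54.3). With all probe sets averaged, the differences of Dcx and Bcl11a shrank from 2.90 and 3.04 to 1.26 and 1.86.

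Tagln3, a calponin-family protein of neurons, was at 28.6 and then 243. Nhlh2, a bHLH factor of newly born neurons, was at 9.28 and 109.5. Both rose, as their shared steps of 2.32 ± 0.21 and 2.10 ± 0.33 passed limma's test (adjusted p = 3.26e-04 and 0.00244). Ckb, the brain creatine kinase that buffers ATP, was bright at both ages, 159 and 1473, an 8.94-fold difference on the log2(signal + 6.50) scale. Nnat, the imprinted proteolipid neuronatin, went from 385 to 2722, which is 6.97-fold on that scale. At E12.5 in wild type Ckb was at 3742 and Nnat at 7589. Values of E12.5, here and below, are set beside the same E10.5 array and are no second measure of the first day.

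Dlx1, a homeobox factor of the ventral telencephalon, was read at 10.3 and 124 in wild type, against 47.9 and 104 in the knockout. Lhx8, a LIM-homeobox factor of cholinergic precursors in the ventral telencephalon, was at 11.5 and 126 in wild type. The knockout arrays held Lhx8 at 111 and 127, so its large difference was seen in the wild-type pair and not in the knockout pair (0.18). Its shared step passed limma's test narrowly (adjusted p = 0.0429). Tle5, a short Groucho-family co-regulator, went from 16.1 to 204 with a knockout difference of 1.80.

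The largest difference of all belonged to Vapb, a membrane-tethering protein of the endoplasmic reticulum. Its brightest probe set went from 15.0 to 372, and from 21.1 to 392 in the knockout. Its second probe set was at 46.4 and 56.6, a difference of 0.26, so the 2 probe sets of Vapb do not give the same size of change.

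**Figure D2:**
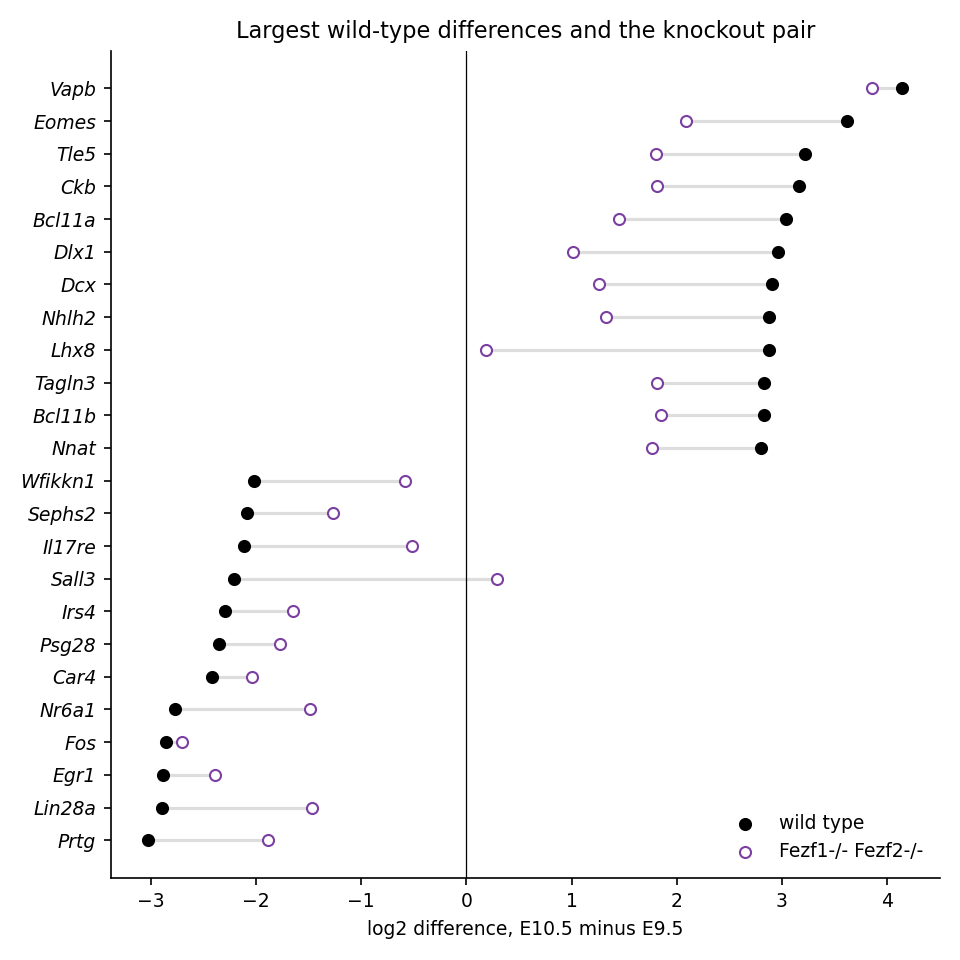
Difference E10.5 minus E9.5 of log2(signal + 6.50) for the 12 largest increases and 12 largest decreases of the wild-type pair (filled points) with the same difference in the knockout pair (open points). The knockout point lies on the same side of 0 for 23 of the 24 genes, Sall3 being the exception, and is nearer to 0 for all 24. The genes were chosen by their wild-type value, which by itself favours a knockout point nearer to 0.

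Proneural and basal progenitor genes were higher wherever they were over 100. That floor lets in genes that were over 100 at E10.5 alone, as Neurog2 was, and so favours increases in this list. With no floor 82.6% of the measured members were higher. Of 23 listed genes that were measured, 10 had a signal over 100 at one age or both, and all of these were higher at E10.5, 8 of them at least 2-fold, with a median difference of 2.08 against -0.05 over all genes over 100. Limma tested 22 of the listed genes, of which 12 rose and 0 fell (14 and 0 at an unadjusted p below 0.05), where 13.7% of all 11097 tested genes rose and 14.9% fell. Neurog2, the bHLH factor that starts glutamatergic neurogenesis in the cortex, went from 35.3 to 247 in wild type, against 30.7 and 84.6 in the knockout. Its relative Neurog1 went from 50.003 to 182. Both Neurog genes rose in the shared step by 1.95 ± 0.27 and 1.34 ± 0.22 (limma adjusted p = 0.00159 and 0.0034).

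Insm1, a zinc-finger factor that promotes the delamination of progenitors, was at 48.0 and 269 in wild type. Hes6, which counteracts the Hes repressors, went from 91.8 to 407, and its second probe set differed by 2.24. Neurod1, a factor of postmitotic neuroblasts, went from 46.0 to 121, a difference of 1.28 that was close to the knockout's 1.20. These 3 genes rose. The family members used later were still dim: Neurod2 was at 15.6 and 4.98, Neurod6 at 5.36 and 0.446 and Neurod4 at 16.9 and 28.9, none over 100. At E12.5 Neurod2 was read at 164 and Neurod6 at 351 in wild type. Nhlh1, the paralog of Nhlh2, was at 20.8 and 54.1 in wild type, against 34.4 and 34.4 in the knockout, and did not pass the test (adjusted p = 0.162).

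Genes of early neurons were higher throughout the part of the list over 100. The same limit of the floor holds here, and with no floor 97.3% of the measured members were higher. Of 37 measured members 29 were over 100, all 29 were higher at E10.5 and 19 at least 2-fold, with a median of 1.27 (knockout 0.52). Limma tested 36, of which 27 rose and 0 fell (29 and 0 at an unadjusted p below 0.05). Tubb3, the neuronal beta-tubulin, was read at 80.6 and 542 in wild type, against 81.1 and 306 in the knockout, so the pairs began level and the wild-type array ended higher. Its shared step was 2.25 ± 0.18 (limma adjusted p = 2.05e-04). Stmn3, a microtubule-destabilizing stathmin, went from 67.0 to 412, and the RNA-binding proteins Elavl4 and Elavl3 from 38.9 to 187 and from 46.7 to 144.

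Within the neuronal list the size of the difference varied widely. Map2, Rtn1, Stmn2 and Stmn4, proteins of the neuronal cytoskeleton and membranes, differed by 2.24, 2.36, 2.08 and 2.32. The growth-cone protein Gap43 differed by 1.11 and Ina, an intermediate filament subunit of neurons, by 1.08. Some members moved less: Stmn1 differed by 0.45, Dpysl3 by 0.26 and Elavl2 by 0.16. Snap25, a protein of synaptic vesicle release, stayed dim, with a signal under 100 and a difference of -0.10.

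**Figure D3:**
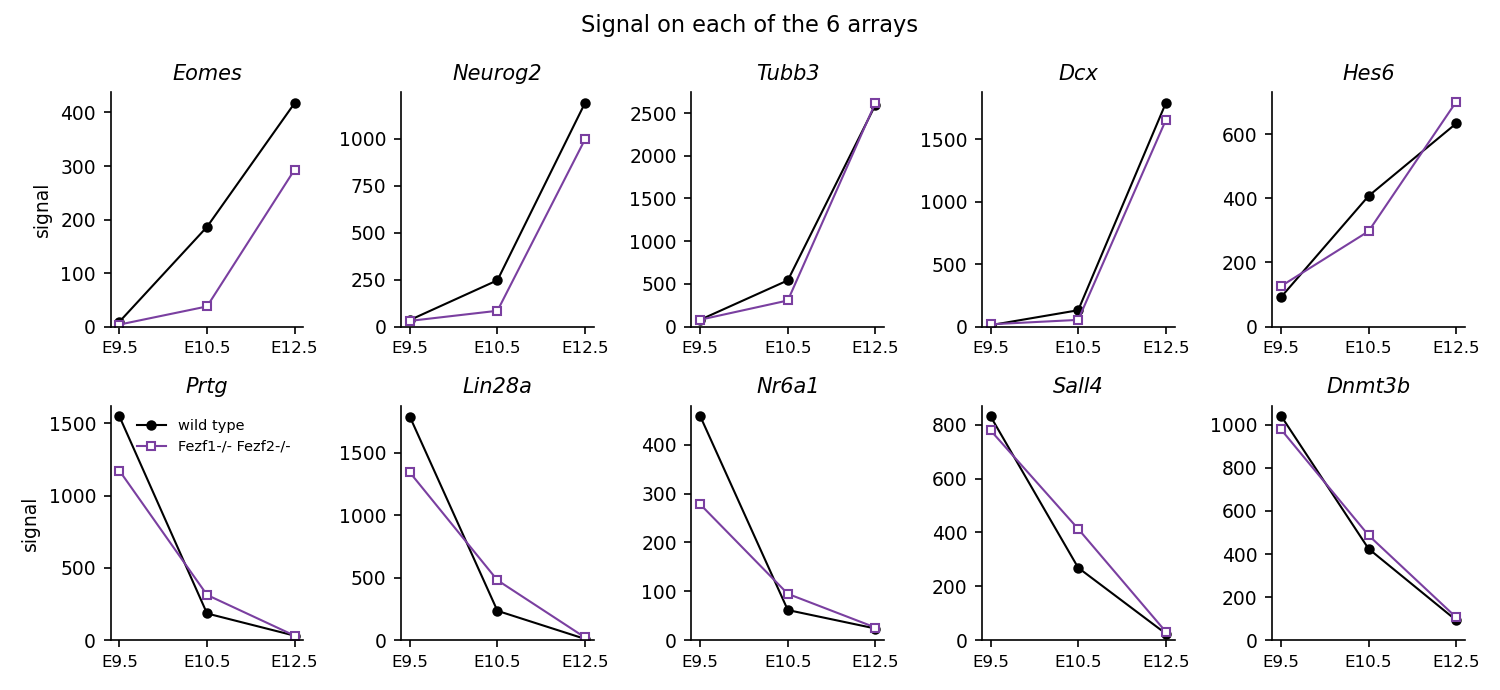
Signal on each of the 6 arrays by embryonic day for 5 genes that were higher at E10.5 in wild type (top row: Eomes, Neurog2, Tubb3, Dcx, Hes6) and 5 that were lower (bottom row: Prtg, Lin28a, Nr6a1, Sall4, Dnmt3b); each point is 1 array, wild type filled and knockout open, and each panel has its own signal axis from 0. At E10.5 the wild-type point lies above the knockout point in all 5 top panels and below it in all 5 bottom panels. The genes shown were chosen with their wild-type values known, and the gap between the genotypes was not tested.

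The promoters of some of these genes hold the E-box letters that bHLH factors bind. CAGATG is an E-box favoured by neurogenins and CAGCTG another E-box of bHLH factors, and CACGTG is the E-box of the Myc family. Sequences of 300 bases, 250 before to 50 after the start, were taken from RefSeq's GRCm38.p6 annotation, with matches on both strands counted and printed in capitals (CAGATG reads CATCTG on the other strand, while the other motifs read the same on both; none of the 3 overlaps another here). The genes shown were picked because they hold a match and were at least 2-fold different: Nhlh2 (chr3:102009895-102010194, plus strand) and Stmn3 (chr2:181314451-181314750, minus strand) among the higher genes, Irs4 (chrX:141725168-141725467, minus strand) and Sephs2 (chr7:127274010-127274309, minus strand) among the lower ones.
Nhlh2: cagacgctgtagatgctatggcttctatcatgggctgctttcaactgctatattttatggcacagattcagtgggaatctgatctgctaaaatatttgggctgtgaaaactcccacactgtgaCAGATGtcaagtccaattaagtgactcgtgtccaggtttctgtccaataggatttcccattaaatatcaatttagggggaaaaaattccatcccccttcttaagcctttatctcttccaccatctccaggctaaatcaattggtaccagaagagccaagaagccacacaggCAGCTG
Stmn3: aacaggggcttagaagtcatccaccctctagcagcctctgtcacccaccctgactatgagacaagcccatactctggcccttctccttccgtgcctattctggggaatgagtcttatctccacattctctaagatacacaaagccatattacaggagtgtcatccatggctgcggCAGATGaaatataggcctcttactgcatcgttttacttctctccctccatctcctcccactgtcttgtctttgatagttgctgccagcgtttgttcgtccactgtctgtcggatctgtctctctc
Irs4: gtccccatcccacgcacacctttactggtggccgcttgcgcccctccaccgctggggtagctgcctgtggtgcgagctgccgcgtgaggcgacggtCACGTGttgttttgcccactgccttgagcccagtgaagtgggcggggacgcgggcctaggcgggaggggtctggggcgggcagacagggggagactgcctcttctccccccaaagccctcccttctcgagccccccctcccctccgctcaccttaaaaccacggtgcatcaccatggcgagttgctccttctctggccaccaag
Sephs2: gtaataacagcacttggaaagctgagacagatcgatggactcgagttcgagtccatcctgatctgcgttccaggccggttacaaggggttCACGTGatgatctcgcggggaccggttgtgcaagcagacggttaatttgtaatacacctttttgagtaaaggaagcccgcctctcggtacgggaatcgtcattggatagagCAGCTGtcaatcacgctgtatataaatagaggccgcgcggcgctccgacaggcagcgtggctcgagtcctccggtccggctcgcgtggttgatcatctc
Nhlh2 holds 1 CAGATG and 1 CAGCTG, Stmn3 holds 1 CAGATG, Irs4 holds 1 CACGTG, and Sephs2 holds 1 CAGCTG and 1 CACGTG. The motif CAGATG does not separate higher from lower genes here. It is also in promoters of the lower genes Prtg, Psg28 and Wfikkn1, and in none of those of Neurog2, Eomes, Dcx and Tubb3, which were higher. Of the genes shown, only the lower ones, Irs4 and Sephs2, hold the E-box of the Myc family, and they were picked because they hold a match. The matches named are of letters, not measured binding.

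Over all 32851 promoters in the table, 17.2% hold CAGATG, 16.3% CAGCTG and 7.15% CACGTG. Of the 301 higher genes 249 have an entry, with 327 promoters, of which 12.8% hold CAGATG, 17.7% CAGCTG and 5.20% CACGTG. Of the 152 lower genes 120 have an entry, with 159 promoters, of which 11.9% hold CAGATG, 15.1% CAGCTG and 13.2% CACGTG. The promoters of all genes with a signal over 100 hold them at 10.4%, 13.5% and 10.3%. No test was made of these shares.

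Genes of neuroepithelial and radial glial progenitors did not share one direction. Of 27 measured genes 22 were over 100, 16 of them higher and 6 lower, with a median of 0.23, and limma found that 6 of 26 rose and 2 fell. Fabp7, the brain lipid-binding protein that marks radial glia, went from 264 to 1166 in wild type, against 429.6 and 779 in the knockout. Nes, the intermediate filament nestin, went from 71.3 to 316, but the knockout was already at 178 at E9.5 and reached 241. The second Nes probe set was dim and differed by 0.22. Id4, an inhibitor of bHLH factors that sustains neural progenitors, was bright at both ages, 357 and 1721, and its second probe set differed by 2.28.

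Msi1, the RNA-binding protein musashi, went from 229 to 513, though its dimmer second probe set differed by -0.16. Among the transcription factors of neuroepithelium, Sox2 differed by 0.12 and Pax6 by -0.25 (by 0.27 on its second probe set), while Sox1 fell, with a wild-type difference of -0.95. Pax3, a dorsal neural tube factor, was at 212 and 105, a difference of -0.97 that missed the test (adjusted p = 0.0507).

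The Notch pathway showed a mixed pattern. Of 20 measured genes 15 were over 100, 7 higher and 8 lower, with a median of -0.02. Among receptors, Notch1 went from 177 to 391 and rose, its dimmer second probe set differing by 0.27, while Notch2 differed by -0.43 and Notch3 by -0.04 (by 0.49 on its second probe set). Of the ligands, Dll1 rose with a wild-type difference of 0.63 and Jag1 fell with -0.65. Mfng, a glycosyltransferase that tunes Notch for its ligands, went from 76.2 to 157 and rose.

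Among the repressors that Notch induces, Hes5 was read at 206 and 371 in wild type, against 679 and 848 in the knockout. The wild-type arrays were thus below the knockout arrays at both ages, and the shared step of Hes5 missed the test (adjusted p = 0.226). Hes1 was at 107 and 127, Hey1 at 195 and 244, and Hey2 and Heyl stayed under 100 at both ages. Nrarp, a feedback inhibitor of Notch, was at 338 and 541 in wild type, against 403 and 386 in the knockout. None of Hes1, Hey1, Hey2, Heyl or Nrarp passed limma's test.

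Cell cycle genes moved in both directions. Of 20 S-phase genes over 100, 12 were lower, with a median of -0.27 and none 2-fold apart, and limma found 10 of 21 to fall and 5 to rise. With all probe sets of a gene averaged the median was 0.06, so the direction of the list depends on the probe sets. Those that fell include the licensing factors Cdc6 (785 and 439) and Cdt1 (2661 and 1648) and the helicase subunits Mcm4 (-0.67) and Mcm2 (-0.61). The second probe sets of Mcm4 and Mcm2 went the other way, by 0.12 and 0.04. Pcna and Rrm1, a replication clamp and a ribonucleotide reductase subunit, rose with differences of 0.45 and 0.60.

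Of 22 genes of the G2 and M phases, 15 were higher and 7 lower, with a median of 0.21 (0.04 with probe sets averaged), and limma found that 8 rose and 1 fell. Ube2c, the ubiquitin-conjugating enzyme of the anaphase-promoting complex, went from 863 to 2175, and Birc5, the survivin subunit of the chromosomal passenger complex, from 583 to 1293. Both rose, while Hmmr, a spindle protein, fell (-0.53). The general mark of cycling cells, Mki67, differed by -0.10. Several cell cycle inhibitors were higher: Cdkn1c (p57) went from 335 to 1197, with 472 and 1036 in the knockout, Cdkn2d from 101 to 216 and Cdkn1a from 38.8 to 105. These 3 inhibitors rose, and Ccnd2, a cyclin of the G1 phase, rose with 0.61. Cdkn1b differed by 0.33 and did not pass.

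The largest loss was that of Prtg, protogenin, an immunoglobulin-family membrane protein of the early neural tube. It was read at 1547 at E9.5 and 185 at E10.5, an 8.13-fold difference, and its second probe set differed by -3.59. In the knockout Prtg went from 1172 to 313, and the shared step was -2.45 ± 0.22 (limma adjusted p = 3.24e-04). On the wild-type array of E12.5 Prtg was at 31.1. Lin28a, which binds let-7 precursors and blocks their maturation, went from 1788 to 235 in wild type, against 1342 and 479 in the knockout. Its second probe set differed by -2.67, and the shared step was -2.18 ± 0.28 (limma adjusted p = 9.99e-04).

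Nr6a1, an orphan nuclear receptor that represses pluripotency genes in the embryo, went from 459 to 61.7 and its second probe set differed by -3.33. Egr1 and Fos, immediate-early transcription factors that cells induce within a short time of a stimulus, went from 663 to 84.3 and from 573 to 73.4. The knockout pair gave 344 and 60.3 for Egr1 and 289.9 and 38.9 for Fos. All 3 genes fell, and the knockout differences of Fos (-2.71) and Egr1 (-2.39) were close to the wild-type ones (-2.86 and -2.88).

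Irs4, an adaptor of insulin and growth factor signalling, went from 1528 to 306, and Car4, a membrane-bound carbonic anhydrase, from 158 to 24.2. Sephs2, a selenophosphate synthetase, went from 1904 to 444, although its second probe set differed by -0.29. Psg28, a member of the pregnancy-specific glycoprotein family, went from 194 to 32.8. These 4 genes fell in the shared step. Il17re, an interleukin receptor, at 139 and 27.1, and Wfikkn1, a binding protein of myostatin and related growth factors, at 123 and 25.3, were dim by E10.5. Both fell too, with knockout differences of -0.52 and -0.58.

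The genes that accompany Lin28a in the early embryo were lower as a group, though not all of them. Of 19 measured genes 12 were over 100, 10 of them lower, 4 at least 2-fold and none at least 2-fold higher, with a median of -0.64 (knockout -0.29). Limma tested 13, of which 7 fell and 0 rose (7 and 0 at an unadjusted p below 0.05). Sall4, a zinc-finger factor of pluripotent cells, went from 831 to 269, and Dnmt3b, a de novo DNA methyltransferase, from 1042 to 424. Both fell, and in the knockout Sall4 was at 779 and 413 and Dnmt3b at 979 and 487. Trim71, an RNA-binding ubiquitin ligase that let-7 represses, was at 187 and 86.5 in wild type, against 131 and 126 in the knockout, and missed the test (adjusted p = 0.123).

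Other known let-7 targets did not share the size of the Lin28a difference. Hmga2, a chromatin protein of early progenitors, was at 2528 and 2439, and its second probe set differed by 0.21. Igf2bp1, an mRNA-binding protein, fell from 1668 to 1084 by its brightest probe set while its second probe set differed by 0.63. Igf2bp3 was at 1003 and 1069, and its second probe set differed by -0.89. The direction of the Igf2bp genes therefore depends on the probe set. Lin28b, the paralog of Lin28a, was dim, at 35.6 and 13.8.

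Ribosome biogenesis, the nucleolar assembly of ribosomes that is strong in fast-growing cells, was lower across most of its genes. All 26 listed genes were over 100, 22 were lower and 4 higher, with a median of -0.47 in wild type against -0.25 in the knockout, and limma found that 15 fell and 1 rose. Rrs1, a factor of large-subunit assembly, went from 2083 to 881, and the nucleolar helicase Ddx21 from 1129.8 to 484. Utp20 and Wdr43, components of small-subunit processing, went from 461 to 196 and from 921 to 397. The gene that rose was Nop58, a core protein of the small nucleolar ribonucleoproteins, with a difference of 1.07, while its partner Nop56 fell by its brightest probe set (-0.46, with 0.36 for the second).

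**Figure D4:**
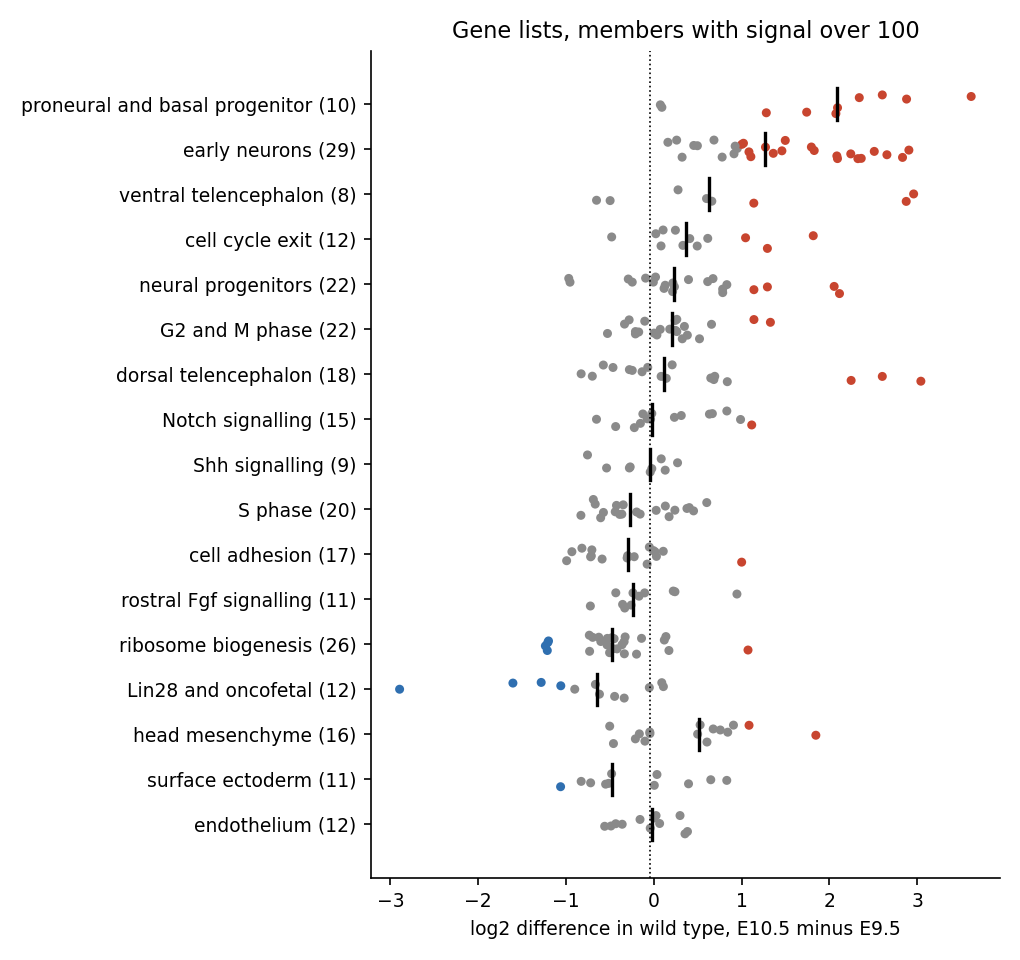
Difference E10.5 minus E9.5 of log2(signal + 6.50) in wild type for each member with a signal over 100 of 17 gene lists; a point is a gene, its number per list is in brackets, black bars are list medians, the dotted line is the median of all 7740 genes, and red and blue points are at least 2-fold higher and lower. The proneural and early neuron lists lie wholly to the right of 0, with medians of 2.08 and 1.27, and the ribosome biogenesis and oncofetal lists mostly to its left, with medians of -0.47 and -0.64.

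Regional patterning genes were mixed, and most of them differed by less than 2-fold. Of 18 dorsal telencephalic genes over 100, 10 were higher and 8 lower, and 3 (Bcl11a, Neurog2 and Id4) were at least 2-fold higher. The cortical patterning factors Emx2, Lhx2 and Nr2f1 differed by -0.07, 0.68 and 0.21, and Sp8, a zinc-finger factor of the rostral cortex, fell (-0.83). The targeted genes diverged in wild type: Fezf2 was read at 78.9 and 146 and Fezf1 at 251 and 143. Neither difference reached 2-fold, each gene has 1 probe set, and the Fezf2 probe set was at 0.458 and 0.904 in the knockout.

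Of 8 ventral telencephalic genes over 100, 6 were higher and 3 at least 2-fold (Dlx1, Lhx8 and Olig2), and 11 more were measured under 100. Olig2, a bHLH factor of ventral progenitors, went from 73.4 to 169 and rose. Dlx2, the neighbour of Dlx1, was at 106 and 171 in wild type, against 197 and 166 in the knockout. The knockout pair thus went the other way for Dlx2, and its shared step missed the test (adjusted p = 0.434). Dlx5 differed by 0.28.

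At the dorsal midline, where the cortical hem and roof plate form, Msx1, a homeobox target of Bmp signalling, went from 213 to 631 and its paralog Msx2 from 104 to 209.6, and both rose. The Bmp ligands did not follow one direction. Bmp5 was at 123 and 58.4 and fell by its brightest probe set, while its second probe set differed by 0.46. Bmp2 was at 101 and 27.9 in wild type, but at 40.6 and 38.6 in the knockout. Bmp4 differed by 0.15, and Bmp7 by -0.19 against 0.18 on its second probe set.

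Some genes of the eye field were among the patterning genes with the largest losses. Six6, a homeobox factor of the retina and hypothalamus, went from 314 to 87.2 in wild type, against 355 and 126 in the knockout, a shared step of -1.61 ± 0.24 (limma adjusted p = 0.00214). Aldh1a3, the retinaldehyde dehydrogenase of the ventral eye and olfactory region, went from 614 to 225 and fell. Its relative Aldh1a1, the enzyme of the dorsal retina, went from 40.7 to 211 and rose, with the knockout pair at 87.1 and 109. The 2 retinoic acid-forming enzymes therefore moved in opposite directions. Six3 and Otx2 differed by 0.15 and -0.03.

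Of 9 retinoid genes over 100, 7 were higher and 2 lower. Crabp1, a cytoplasmic retinoic acid-binding protein, went from 945 to 3397 in wild type, against 1269 and 3756 in the knockout. Rarb, a receptor that retinoic acid itself induces, went from 112 to 203. Both rose, and both were low in wild type at E12.5, at 97.0 and 41.1.

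Genes of the signalling pathways that pattern the forebrain moved in both directions, and several receptors and feedback inhibitors fell. Among 11 rostral Fgf genes over 100, 8 were lower, and limma found 4 of 14 to fall and 0 to rise (6 and 1 at an unadjusted p below 0.05). They were the receptor Fgfr2 (-0.36) and the feedback inhibitors Spry2 (-0.72), Spred1 (-0.43) and Spred2 (-0.33). The dimmer second probe sets of Fgfr2 and Spry2 went the other way, by 0.49 and 1.30, and the ligands Fgf8 and Fgf17 stayed under 100. With all probe sets averaged the median of the Fgf list was 0.01 and 54.5% of it was higher, so its lower direction rests on the brightest probe sets. Fgfr3 was at 106 and 211 in wild type, against 141 and 141 in the knockout. Among 9 Shh pathway genes over 100, the receptor Ptch1 fell from 1571 to 1079.7 and the signal transducer Smo from 723 to 426, while Shh itself was at 320.5 and 388. Of 15 Wnt pathway genes over 100, 7 were higher and 8 lower. The receptors Fzd5 (-0.98), Fzd8 (-0.53) and Lrp6 (-0.57) fell by their brightest probe sets, and the feedback target Axin2 differed by -0.04. The dimmer second probe sets of Fzd8 and Lrp6 went the other way, by 0.71 and 0.59.

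Transcription factors of later progenitor states were mixed. Of 17 over 100, 10 were higher and 7 lower, with a median of 0.07 (knockout -0.12), and limma found that 7 of 24 rose and 3 fell. Nfib, a nuclear factor I protein of the gliogenic and neurogenic programme, went from 26.2 to 131 and its second probe set differed by 2.13. The dimmer Nfia, under 100 at both ages, differed by 3.59, and both rose. Pou3f3, a POU factor of upper-layer neurons and their progenitors, went from 309 to 771 and rose. Zeb2, a zinc-finger repressor, went from 120.3 to 55.6 and fell by its brightest probe set, while its second probe set differed by 0.27.

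Metabolic genes moved in both directions, few of them 2-fold. Of 27 oxidative phosphorylation genes over 100, 18 were higher and 9 lower, with a median of 0.09, and limma found that 8 rose and 4 fell. Ndufa4, a small subunit of the respiratory chain, went from 475 to 1105. Of 19 glycolytic genes over 100, 10 were higher and 9 lower, and limma found that 6 of 21 rose and 4 fell. The glucose transporter Slc2a3 fell from 2447 to 1099, and Pdk1, a kinase that inhibits pyruvate dehydrogenase, from 1023 to 453. With all probe sets averaged, the differences of Slc2a3 and Pdk1 shrank from -1.15 and -1.16 to -0.06 and -0.40, although the second-brightest probe set of each differed by -1.31 and -1.03. Ldhb, the lactate dehydrogenase subunit of oxidative tissue, rose from 488 to 1185. Gapdh and Ldha differed by 0.03 and 0.04.

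Adhesion genes were more often lower than higher, and guidance genes were mixed. Of 17 adhesion genes over 100, 13 were lower, with a median of -0.30, and limma found that 7 of 27 fell and 1 rose. Cdh6, a cadherin of forebrain compartments, fell from 347 to 171, and Itgb1, the shared beta subunit of many integrins, rose from 157 to 319.8. Of 22 axon guidance genes over 100, 10 were higher and 12 lower, and limma found that 3 of 28 rose and 6 fell. The semaphorin co-receptor Nrp1 fell from 339.5 to 129, with 289.8 and 115 in the knockout. The ephrin receptor Epha3 rose from 111 to 394 and the netrin receptor Dcc from 75.8 to 166. With all probe sets averaged, the differences of Nrp1 and Dcc shrank from -1.36 and 1.07 to -0.62 and 0.32.

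RNA of cells outside the neuroepithelium was present at both ages. The 14 measured head mesenchyme markers summed to 4534 at E9.5 and 6685 at E10.5 in wild type, with 10 of 14 higher and single markers from 9.64 to 2139.7, and to 6214 and 7013 in the knockout. The gene list of head mesenchyme and neural crest went both ways. Of its 16 members over the signal floor, 9 were higher and 7 lower in wild type. Limma found that 2 of 22 rose and 3 fell. Col1a2, a collagen of mesenchyme, rose from 437 to 934. Twist2, a mesenchymal bHLH factor, was at 29.1 and 121 with an adjusted p of 0.0583 in limma's test. The 15 surface ectoderm markers summed to 2215 and 1782 in wild type, with 7 of 15 higher. Cdh1, Grhl2 and Esrp1, which act in epithelia, fell, while Epcam, an epithelial adhesion molecule, rose with a difference of 0.83. Esrp1 went from 286 to 134 and stood at 0.650 at E12.5. The 15 endothelial markers summed to 1503 and 1437. Of these 15, 8 were higher. What these cells add to the differences of genes they share with the neuroepithelium was not tested.

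Blood-cell RNA was present at both ages, with bright embryonic globins. Of the embryonic globins, Hbb-y was at 9951 and 10280.0, Hbb-bh1 at 8469 and 9761 and Hba-x at 4551 and 7409. Among them Hba-x passed the test (0.64 ± 0.14, limma adjusted p = 0.00904). The adult globins read through a probe set of a single gene stayed under 100, Hba-a1 at 4.26 and 15.4 and Hbb-b2 at 14.2 and 9.05. Probe sets that name several genes were left out, so these values do not show that adult globin RNA was absent. Alas2, the first enzyme of heme synthesis in red cells, rose from 92.0 to 205. The 13 macrophage markers were dim, with 1 of 13 over 100, and summed to 212 and 564 in wild type, against 301 and 471 in the knockout, with 11 of 13 higher. Csf1r, the macrophage growth factor receptor, was the one over 100, at 58.8 and 124, and its dimmer second probe set differed by -0.22.

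Set beside the knockout pair, most of the wild-type differences kept their direction. The control probe sets described above also differed between the ages in both pairs. Processing that went with age therefore cannot be told apart from development by this agreement, nor by the shared step. Of the 301 genes at least 2-fold higher in wild type, 296 were also higher at E10.5 in the knockout, 105 of them at least 2-fold, where 43.5% of all 7740 genes were higher in that pair. Of the 152 lower genes, 149 were lower there, 37 at least 2-fold, where 56.4% of all genes were lower. The difference was smaller in the knockout for 274 of the 301 and 143 of the 152 genes, which were chosen by their wild-type value. By its own values the knockout pair had 120 genes (1.58% of 7612) at least 2-fold higher and 70 (0.920%) at least 2-fold lower. At a single age the genotypes stood closer, with 20 of 7487 genes (0.267%) at least 2-fold apart at E9.5 and 26 of 7481 (0.348%) at E10.5. Whether the step is larger in wild type was not tested, as each pair has 1 array per age.

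The step averaged over both genotypes was wide. Of 11097 genes tested by limma, 1525 (13.7%) rose and 1653 (14.9%) fell from E9.5 to E10.5. The fit holds the same 2 wild-type arrays that chose the 301 higher and 152 lower genes, so that 288 and 138 of them passed in their own direction is a description and no separate support. With values as deposited the counts were 523 and 5345, and without the trend in the variance 829 and 689. Of the 301 higher genes 73 have a second probe set over 100, which was also higher for 64 and at least 2-fold for 45. Of the 152 lower genes 53 do, which was also lower for 48 and at least 2-fold for 18. A second probe set could pass that floor at 1 age alone, which favours the direction of its gene. It was read on the same 2 arrays, and the share over all genes was not computed, so these counts are no separate support. Averaging all probe sets of a gene also shrank the differences of Nr6a1 to -1.66, Irs4 to -1.68, Il17re to -1.14, Neurog1 to 0.999 and Col1a2 to 0.43, and widened that of Cdkn1a to 2.07.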

How the data were processed

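The authors deposited linear intensity, 1 value for each probe set and array, computed with MAS5 per the submitters' processing notes. For its version, scaling target and detection calls, the entry is: not given in the sources used here. Samples were grouped by genotype and age in their labels, 1 array each. The arrays were not on a common level (2% trimmed mean 108 at E9.5 and 74.3 at E10.5 in wild type), so all 6 were quantile-normalized with limma 3.58.1 in R 4.3.3, and log2(signal + 6.50) was taken. The number of arrays limits the precision.

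Of 45101 probe sets, 34958 name 1 gene symbol in the supplied platform annotation, 932 several and 9211 none that is listed; 34754 of the first kind matched an Entrez identifier in RefSeq's GRCm38.p6 table, and only the first kind was used. Each gene is represented by the probe set with the highest mean on the 6 arrays, and 9012 of 18194 genes have a second one. A wild-type difference was counted at 2-fold with a signal over 100 in either array, with no test. The shared step was fitted on all 6 arrays with age and genotype as terms (lmFit, eBayes with a trend, two-sided), over the 11097 genes that were, on average, brighter than the median probe set, with Benjamini-Hochberg adjustment and a threshold of 0.05. Without the adjustment, 4623 genes had a p-value below 0.05. These p-values measure only the spread between these arrays, and nothing in the labels says which arrays were processed together. On simulated data for this comparison with 11097 genes, the fit recovered 98 of 100 genes changed 2-fold and 100 of 100 changed 4-fold, with 10 false calls. The simulated noise was normal, with the same spread for genes of like brightness, and each changed gene had the same step in both genotypes. The real arrays need not meet these conditions, so the simulated counts do not give the error rate of the calls above.

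The genes described and the 33 gene lists were chosen with earlier results of these data known. Named are the 12 largest increases and decreases without clone-named symbols, up to 4 members of each list with the largest difference, the small families of Lin28, Hmga, Igf2bp, globin, proneural bHLH and Hes or Hey genes, and Fezf1 and Fezf2. Other list members were named after their values were seen, as examples. Alternatives for scale, pseudocount, signal floor and probe set are in the closing section. Values of the arrays of E12.5 and of the knockout are used only beside the wild-type step or in the shared fit.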

Additional observations from a re-analysis of the deposited data

Results flagged for a closer look

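Among the named genes at least 2-fold different in wild type, 2 went the other way in the knockout pair. Sall3, a zinc-finger factor of the spalt family, was read at 108 and 18.4 in wild type (-2.21), against 41.9 and 52.6 in the knockout (0.29). Its dim second probe set differed by -0.04 in wild type. Ednrb, the endothelin receptor of progenitors and neural crest, was at 55.0 and 144 in wild type (1.29), against 101 and 97.7 in the knockout (-0.04). With 1 array per genotype and age, neither difference between the genotypes was tested.

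Over all genes, 8 of the 453 that differed at least 2-fold in wild type went the other way in the knockout. The widest gap was that of Ces5a, a carboxylesterase named after its values were seen, at 53.0 and 144 in wild type, against 157 and 30.6 in the knockout.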

How the results depend on the processing

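No paired analysis was possible because each group has 1 array and replicate numbers carry no pairing. The counts of genes at least 2-fold higher and lower (301 and 152) became 76 and 1150 with values as deposited, 189 and 94 at a signal floor of 200, and 1225 and 914 with no floor. At a floor of 50 the higher count was 460, and when a gene's probe sets were averaged the lower count was 78. They moved by less than 1.5 times with a common trimmed mean, quantile normalization of the wild-type arrays alone, other pseudocounts and a floor on the mean of 6 arrays. The limma counts (1525 rose and 1653 fell) became 523 and 5345 with values as deposited, and 829 and 689 without the variance trend. With averaged probe sets 779 fell. Without the E12.5 arrays 1218 rose and 1408 fell. Of 79 named genes at least 2-fold different, 20 came under 2-fold with values as deposited, 2 with the trimmed mean, 13 with the larger pseudocount and 19 with averaged probe sets, and Bmp5 alone reversed, to 0.0060, in the last of these. The share of higher members of a list left its binomial interval only with values as deposited, in 18 of 30 lists. That interval is wide for short lists and treats genes as independent, so staying inside it does not show a stable direction. The Cajal-Retzius share stayed inside while going from 20% to 64.3% with no floor. The rostral Fgf share did so while going from 27.3% to 54.5% with averaged probe sets. No detection calls were used, so signal over background limits every value under 100.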

Other observations

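Some gene groups not described above were looked at after the values had been seen, and they are given as counts and values with no test. Of 30 measured immediate-early genes 14 were over 100. Among these, 9 were lower at E10.5 in wild type, 5 of them at least 2-fold, and 9 were lower in the knockout pair. Over all 7740 genes, 45.6% were higher and 1.96% at least 2-fold lower in wild type, and 56.4% were lower in the knockout. The floor lets in genes that were over 100 at E9.5 alone, as Egr1 and Fos were, which favours decreases. Besides Fos and Egr1, Ccn1, a matricellular protein of the Yap response, was at 336 and 147 in wild type, against 255 and 174 in the knockout. Dusp1, a phosphatase that switches off stress kinases, was at 337 and 168. The group was not uniform, since Ier2, induced in the same way in cultured cells, was at 274 and 439 and Jun at 267 and 295.

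Genes of the proteasome and of mitochondrial ribosomes were more often higher than lower. Of 34 proteasome subunit genes over 100, 26 were higher and 8 lower, none 2-fold, with medians of 0.32 in wild type against 0.30 in the knockout. Of 73 mitochondrial ribosomal protein genes, 48 were higher, with a median of 0.17, against 42 and 0.08 in the knockout. Cytoplasmic ribosomal protein genes were at a median of 0.02 over 47 genes, against -0.47 for the ribosome biogenesis factors. Many of the former lie near the top of the signal scale, where little room is left for an increase, as Rps29 at 11116 and 11925 in wild type. The gap between these groups was not tested. Among 18 hypoxia-inducible genes over 100, 11 were lower in wild type (median -0.25) and 7 in the knockout (median 0.06). Over all 7740 genes, 45.6% were higher in wild type and 56.4% were lower in the knockout. The gap between the genotypes was not tested for these genes. Ddit4, an inhibitor of mTORC1, was at 299 and 712 in wild type, against 212 and 756 in the knockout.

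The remaining lists were thinly filled over 100. Of 14 splicing factor genes over 100, 8 were higher and 2 at least 2-fold, both of the Elavl family, and Esrp1, the epithelial splicing regulator, was at least 2-fold lower. Of 5 Cajal-Retzius genes over 100, 4 were lower, Reln, the extracellular guidance protein reelin, being at 100.4 and 74.0, against 650.3 at E12.5. Limma, which tested 12 of the list by mean brightness, found that 2 rose and 0 fell (3 and 0 at an unadjusted p below 0.05), and the direction therefore depends on which members are counted. Of 7 diencephalic and midbrain genes, 5 were lower in wild type (median -0.40) and 3 in the knockout (median 0.06), with Otx1 at 164 and 102. Of 5 placode genes, 3 were higher, with Six2 at 143 and 308.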
